A study of Homo sapiens with 10 samples.

Results

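The urokinase and plasminogen activation genes analysed here were PLAU, PLAUR, PLAT, SERPINE2, PLGRKT, ANXA2 and S100A10, found by their Ensembl identifiers as 7 of the 58050 rows of the expression table. They were picked by name for their place in plasminogen activation, with earlier results of these data known. Shares of called genes among them are therefore descriptive only. They were measured in HCT116 cells, an established human colorectal carcinoma line, by sequencing of polyadenylated RNA. The groups were 5 cultures of HCT116-WT cells, which express CD276, and 5 cultures of HCT116-CD276KO cells, edited with Cas9 and a guide against CD276. All HCT116-CD276KO cultures came from 1 sorted clone, so effects of losing CD276 and traits of that clone cannot be told apart. A scrambled guide served as the editing control, and whether the HCT116-WT cultures had received it is not stated in the sources used here. All 10 cultures were kept in McCoy's 5A medium with calf serum. The comparison asks how the RNA of the plasminogen activation system stood in cells without CD276. Protein was not analysed here.

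Plasminogen is a circulating proenzyme that is cut into plasmin, a broad serine protease that degrades fibrin and matrix proteins and activates other proteases. Urokinase (uPA, gene PLAU) and tissue plasminogen activator (tPA, gene PLAT) make that cut. Urokinase works while bound to its receptor uPAR (gene PLAUR), and cells gather plasminogen through proteins that bind it, among them the receptor encoded by PLGRKT and the complex of annexin A2 (ANXA2) with S100A10. Serpins such as protease nexin-1 (SERPINE2) inactivate the activators. In carcinomas the system is known for its part in invasion and matrix turnover.

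Values are TPM, the share of a gene among all transcripts of a library after its transcript length has been accounted for. A TPM value does not keep its read number, so the table does not show the depth behind each value. Between 22109 and 22948 genes were above 0 TPM per library. The trend of the values with transcript length varied from library to library, from a Spearman correlation over genes of -0.48 in HCT116-CD276KO replicate 2 and -0.44 in replicate 3 to 0.39 in HCT116-WT replicate 1. The trend with the GC content of transcripts varied as well. Its correlation ran from -0.34 in HCT116-WT replicate 1 to 0.60 in HCT116-WT replicate 3, and was 0.47 in HCT116-CD276KO replicate 2. CD276 itself stood between 38.1 and 53.6 TPM in HCT116-WT and between 4.4 and 7.42 TPM in HCT116-CD276KO libraries. Of 7 colorectal epithelial markers 5 were expressed, while VIL1 and CDX1 were at or near 0. All 5 (EPCAM, KRT8, KRT18, KRT19 and CDH1) were lower in HCT116-CD276KO cells by the test used below, which called 4.09% of all genes lower. The summed level of the markers was 4173 to 4942 TPM against 3306 to 3773 TPM. KRT19 passed narrowly (adjusted p = 0.049, limma), the EPCAM groups overlapped, and KRT8 lost its call with median-of-ratios scaling. The part of these markers in the results below was not tested. Of 7 leukocyte markers only CD68 reached a mean of 1 TPM, and PTPRC and CD14 stayed near 0.

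Of the 7 genes, S100A10, SERPINE2 and PLAUR were lower in HCT116-CD276KO cells, and no gene was higher. S100A10 kept 62.9% of its HCT116-WT mean, SERPINE2 66.5% and PLAUR 71.1%. PLAU, PLAT, PLGRKT and ANXA2 did not pass the test. The test was limma on log2(TPM + 1) over the 13581 genes whose mean reached 1 TPM, all 7 among them, with a call at a Benjamini-Hochberg adjusted p under 0.05. The same test called 4.87% of all genes, 4.09% lower and 0.781% higher, against 3 of these 7. The split of 556 lower and 106 higher depended on the scaling: it was 388 and 190 with median-of-ratios scaling, 385 and 253 with quantile normalization, and 720 and 501 after removal of library-wise trends with the length and GC content of transcripts. S100A10, SERPINE2 and PLAUR were lower in all 3 of these fits. Values of the groups did not overlap in the same 3 genes, as in 7.61% of all genes tested, 6.19% with the HCT116-CD276KO group lower. The median log2 fold change was -0.31 over the 7 genes and -0.086 over all genes, which became 0.0017 with median-of-ratios scaling and 0.0073 with quantile normalization. In bulk RNA, less transcript in every cell and fewer cells with the transcript cannot be told apart.

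**Figure D1:**
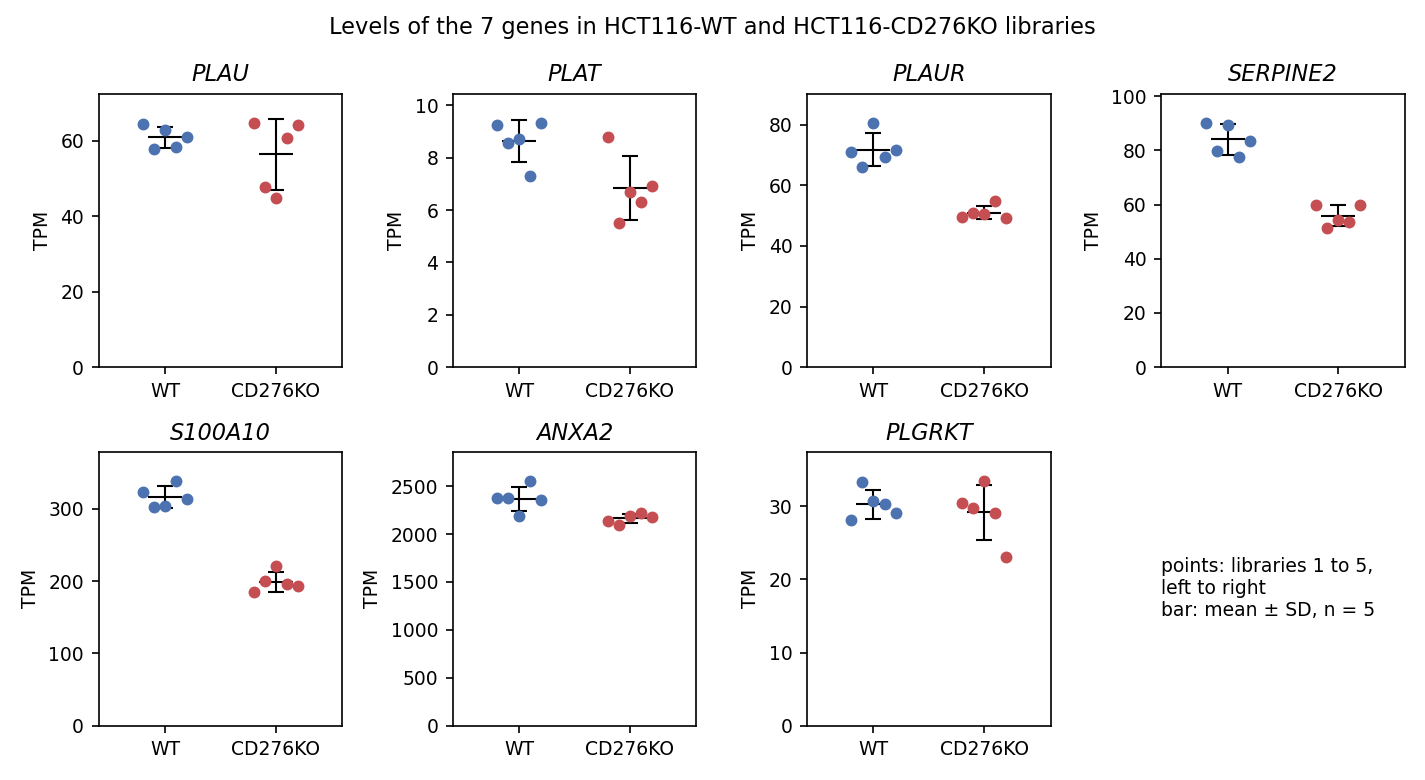
TPM of each gene (vertical axes, from 0) in the HCT116-WT (blue) and HCT116-CD276KO (red) libraries, with replicates 1 to 5 from left to right and the mean ± SD (n = 5) as a black bar. The groups are apart for PLAUR, SERPINE2 and S100A10 and overlap for PLAU, PLAT, ANXA2 and PLGRKT, and HCT116-CD276KO replicates 2 and 3 are the low ones for PLAU.

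The activators came first in the pathway. PLAU (ENSG00000122861) is encoded on the plus strand of chromosome 10 (hg38, 73909177 to 73917496). PLAU levels in the HCT116-WT libraries, given here and below in the order of replicates 1 to 5, were 64.4, 57.9, 62.9, 58.3 and 60.9 TPM. The HCT116-CD276KO libraries had 64.7, 47.8, 44.9, 60.7 and 64.1 TPM. Replicates 1, 4 and 5 of the HCT116-CD276KO group lay within or just above the HCT116-WT range, and replicates 2 and 3 lay below it. The means were 60.9 ± 2.83 and 56.4 ± 9.40 TPM (SD, n = 5), so the spread was wider in the HCT116-CD276KO group. The log2 fold change was -0.12 with a 95% interval from -0.35 to 0.11 (adjusted p = 0.497, limma), so the interval held both a fall and a small rise. HCT116-CD276KO replicates 2 and 3 are also those with the strongest negative trend with transcript length. Once each library's trend with length and GC content was removed, they stood at 5.59 and 5.63 on the log2(TPM + 1) scale, still below the other 3 libraries of the group at 5.98 to 6.04. The HCT116-WT libraries then stood between 5.88 and 5.99. C10orf55, annotated on the opposite strand across PLAU, was between 0.05 and 0.28 TPM in all 10 libraries.

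PLAT (ENSG00000104368, chromosome 8, 42174718 to 42207709, minus strand) was the least abundant of the 7 genes. PLAT levels were 9.23, 8.56, 8.73, 7.31 and 9.33 TPM in the HCT116-WT libraries. For HCT116-CD276KO they were 8.79, 5.52, 6.69, 6.3 and 6.92 TPM. In the latter group only replicate 1 lay inside the HCT116-WT range, and the other 4 lay below it. The log2 fold change was -0.31 (SE 0.11, 95% interval -0.55 to -0.063) and the adjusted p was 0.139 from limma. Without HCT116-CD276KO replicate 1 the log2 fold change was -0.39 and the adjusted p 0.039, so the call turned on this library. The log2 fold change was nearer to 0 with median-of-ratios scaling (-0.22), quantile normalization (-0.17) and the length and GC trends removed (-0.21). A two-sided exact permutation test of the 5 against 5 values gave an unadjusted p = 0.0317.

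PLAUR encodes uPAR, which is tethered to the membrane by a lipid anchor, holds urokinase at the cell surface and can be shed. The gene (ENSG00000011422) lies on chromosome 19 from 43646095 to 43670547 on the minus strand. PLAUR levels were 70.9, 66.1, 80.6, 69.5 and 71.8 TPM in the HCT116-WT libraries. The corresponding HCT116-CD276KO values were 49.7, 50.8, 50.5, 54.9 and 49.2 TPM. Every HCT116-CD276KO library was below every HCT116-WT library, and replicate 4 was the highest of its group. The means were 71.8 ± 5.40 and 51.0 ± 2.25 TPM (SD, n = 5). PLAUR fell by 0.48 on the log2 scale (SE 0.065, 95% interval -0.62 to -0.34, adjusted p = 0.00129, limma). The exact permutation p was 0.00794, the lower bound for groups of this size. Removal of the length and GC trends left the log2 fold change at -0.48 (adjusted p = 0.000157).

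AP-1, the dimer of FOS and JUN family proteins, is known to act at the PLAUR promoter. The 250 bases before each RefSeq start (GRCh38.p14) were searched on both strands for the AP-1 letters TGANTCA, which 6.57% of the 35116 promoter windows hold. Entries were found for 6 of the 7 genes, in 8 windows, and not for PLAT. The letters occurred in the windows of PLAUR and ANXA2, once each, 186 and 127 bases before the start. The stretch of each is shown because one of these genes fell and the other did not pass the test, with the AP-1 letters in capitals, and the PLAUR window also lies wholly within annotated exons.
PLAUR, chr19:43670339-43670365, minus strand: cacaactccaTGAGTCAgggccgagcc
ANXA2, chr15:60398097-60398123, minus strand: cgggccggggTGAGTCAcccctgactt
The windows of S100A10, SERPINE2, PLAU and PLGRKT held no such letters.

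SERPINE2 encodes protease nexin-1, an inhibitor of urokinase, tPA, plasmin and thrombin that is bound to the cell surface and the matrix. The gene (ENSG00000135919) lies on chromosome 2 from 223975045 to 224039318 on the minus strand. The 5 HCT116-WT libraries had 90.2, 79.8, 89.5, 77.5 and 83.5 TPM of SERPINE2. The 5 HCT116-CD276KO libraries had 60.0, 51.5, 54.5, 53.7 and 59.7 TPM. Again no HCT116-CD276KO library reached the lowest HCT116-WT library. The means were 84.1 ± 5.67 and 55.9 ± 3.81 TPM (SD, n = 5), and the log2 fold change was -0.58 (SE 0.068, 95% interval -0.73 to -0.43, adjusted p = 0.000465, limma). The exact permutation p was 0.00794. SERPINE2 has the longest transcript of the 7 genes, 5989 bases, and with the length and GC trends removed its log2 fold change was smaller, -0.41 (adjusted p = 0.0117), with no overlap between the groups.

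RefSeq gives 2 starts for SERPINE2. The 250 bases before the downstream start, which overlap no annotated exon, are shown because they hold the CCAAT box (CCAAT, either strand) 7 times and the GC box (GGGCGG, either strand) once, all in capitals. A CCAAT box is present in 32% of all windows of this length, and 7 or more are present in 0.0199%. The count of 7 was taken from this window, the highest among those of the genes analysed here, so the share is no test. The boxes lie in a stretch that recurs with few changes, so they are not independent of each other. The table's values are sums over transcripts, so the use of either start was not measured.
SERPINE2, chr2:224031479-224031728, minus strand: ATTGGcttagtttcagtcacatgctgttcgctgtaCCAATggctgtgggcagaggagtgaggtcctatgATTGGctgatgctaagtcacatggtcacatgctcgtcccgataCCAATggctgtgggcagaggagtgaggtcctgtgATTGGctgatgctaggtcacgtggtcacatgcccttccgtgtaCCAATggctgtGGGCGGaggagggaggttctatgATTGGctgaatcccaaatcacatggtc
The window of the upstream start held 2 GC boxes and no CCAAT box.

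S100A10, or p11, is a member of the S100 family that does not need calcium to bind its partner. It forms a complex with annexin A2 at the cell surface, where its end binds plasminogen and tPA, and the S100A10 protein is known to be unstable without annexin A2. The gene (ENSG00000197747) lies on chromosome 1 from 151982915 to 151993859 on the minus strand. Its levels were 323, 302, 304, 338 and 314 TPM in the HCT116-WT libraries. They were 184, 199.9, 221, 196 and 193 TPM in the HCT116-CD276KO libraries. All 5 HCT116-CD276KO libraries lay well below the lowest HCT116-WT library. The means were 316 ± 15.0 and 199 ± 13.7 TPM (SD, n = 5). S100A10 fell by 0.67 on the log2 scale (SE 0.060, 95% interval -0.80 to -0.54, adjusted p = 5.22e-05, limma), which was the largest fall of the 7 genes. By p-value it was at place 43 of the 13581 genes, and 2.03% of them had a log2 fold change as low or lower. With the length and GC trends removed the log2 fold change was -0.70 (adjusted p = 3.24e-06). At 671 bases the longest transcript of S100A10 is the shortest of the 7 genes.

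The 250 bases before the RefSeq start of S100A10 are shown as those of the gene with the largest fall. They overlap no annotated exon, have a GC content of 71.2%, and hold 1 GC box, in capitals, 167 bases before the start. The GC box is present in 42.6% of all windows.
S100A10, chr1:151993860-151994109, minus strand: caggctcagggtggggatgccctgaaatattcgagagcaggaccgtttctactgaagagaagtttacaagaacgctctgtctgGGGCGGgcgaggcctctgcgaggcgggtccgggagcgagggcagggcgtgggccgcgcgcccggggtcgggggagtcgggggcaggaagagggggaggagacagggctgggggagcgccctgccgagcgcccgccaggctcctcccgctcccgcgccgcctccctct

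ANXA2 (ENSG00000182718, chromosome 15, 60347134 to 60402883, minus strand) was by far the most abundant of the 7 genes and at place 63 of all genes by mean TPM. HCT116-WT libraries held 2376, 2375, 2193, 2549.9 and 2350.3 TPM of ANXA2. HCT116-CD276KO libraries held 2134, 2096, 2187, 2221 and 2181 TPM. The groups overlapped through HCT116-WT replicate 3 alone, which lay below HCT116-CD276KO replicate 4. The log2 fold change was -0.13 (SE 0.048, 95% interval -0.23 to -0.024, adjusted p = 0.147, limma), and -0.030 with the length and GC trends removed. After that removal the ranges on the log2(TPM + 1) scale largely coincided, 11.08 to 11.28 in HCT116-WT and 11.02 to 11.25 in HCT116-CD276KO libraries. ANXA2 has retrocopies in the genome whose sequence is close to its own, and reads can be shared with them. ANXA2P2 had means of 69.5 and 58.4 TPM and ANXA2P1 of 3.49 and 3.07 TPM in the same order of groups, and neither passed the test, so the ANXA2 level carries this uncertainty.

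PLGRKT encodes a membrane protein with a lysine at its end to which plasminogen binds. The gene (ENSG00000107020) lies on chromosome 9 from 5357971 to 5437925 on the minus strand. PLGRKT transcript was at 28.1, 33.3, 30.8, 30.3 and 29.0 TPM in HCT116-WT cells. The HCT116-CD276KO values were 30.5, 29.8, 33.4, 29.1 and 23.0 TPM. The ranges largely coincided, and HCT116-CD276KO replicate 5 was the one library clearly below the rest. The log2 fold change was -0.061 with a 95% interval from -0.26 to 0.14 (adjusted p = 0.721, limma), and its sign turned under median-of-ratios scaling (0.035), quantile normalization (0.045) and without that library (0.019).

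**Figure D2:**
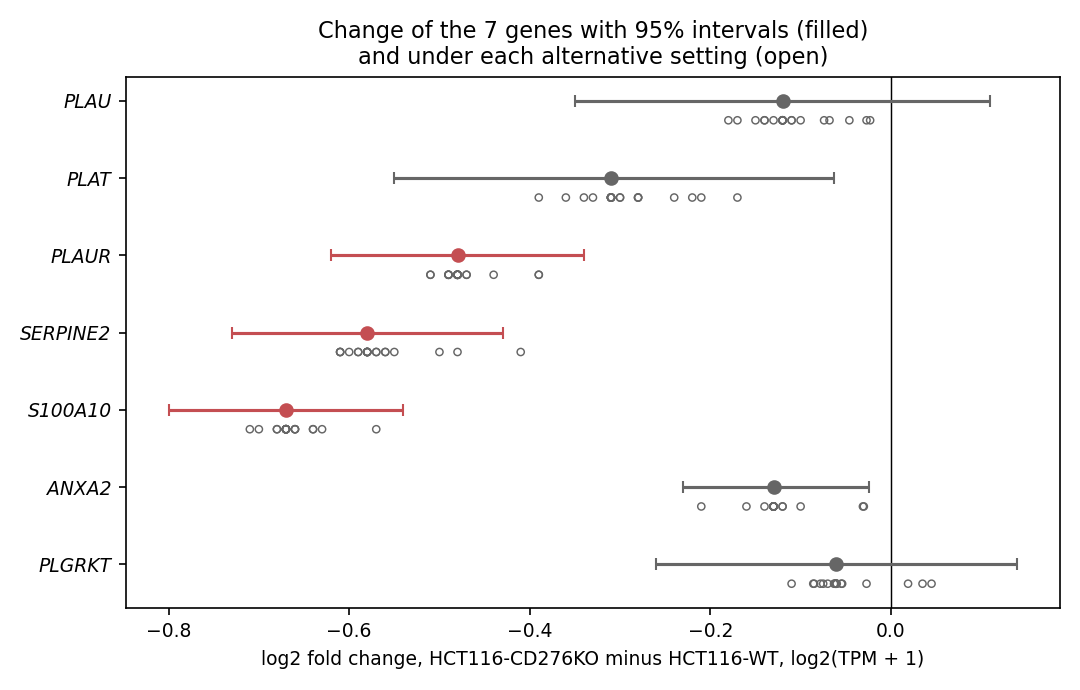
Log2 fold change of each gene on the log2(TPM + 1) scale (horizontal axis, HCT116-CD276KO minus HCT116-WT) as a filled point with its 95% interval, red where the adjusted p is under 0.05. Open points are the same change under each alternative setting, which lie between -0.71 and -0.39 for S100A10, SERPINE2 and PLAUR and lie on both sides of 0 for PLGRKT.

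TPM are per transcript length, so the levels of the genes can be set beside each other. In HCT116-WT cells the order by mean TPM was ANXA2, S100A10, SERPINE2, PLAUR, PLAU, PLGRKT and PLAT. Of neighbours in this order only SERPINE2 and PLAUR had overlapping ranges. In HCT116-CD276KO cells the means of PLAU, SERPINE2 and PLAUR were 56.4, 55.9 and 51.0 TPM, and the ranges of these 3 genes overlapped.

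Ratios within a library, taken as differences of log2(TPM + 1), hardly depend on the scaling between libraries, and 3 were compared between the groups. They give the receptor against its ligand, the subunits of the annexin A2 complex against each other, and the annexin A2 subunit against the receptor. The ratio of S100A10 to PLAUR was not compared, so the complex as a whole was not set against the receptor. The S100A10 level was 13.6, 12.7, 13.8, 13.3 and 13.3% of the ANXA2 level in the HCT116-WT libraries. In the HCT116-CD276KO libraries it was 8.64, 9.53, 10.1, 8.82 and 8.84%, without overlap. The log2 ratio differed by -0.54 between the groups (exact permutation p = 0.00794, adjusted over the 3 ratios p = 0.0119), so S100A10 fell relative to ANXA2.

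The PLAU level was 90.9, 87.6, 78.0, 84.0 and 84.9% of the PLAUR level in the HCT116-WT libraries. The HCT116-CD276KO percentages were 130.3, 94.1, 88.9, 110.5 and 130.2. In 3 of the 5 HCT116-CD276KO libraries there was more PLAU than PLAUR, and replicate 3 overlapped the HCT116-WT range. The log2 ratio of PLAU to PLAUR was higher by 0.36 in HCT116-CD276KO cells (exact permutation p = 0.0159, adjusted p = 0.0159). Without HCT116-WT replicate 3 the difference was 0.33 and the adjusted p = 0.0556 by the exact permutation test. The log2 ratio of ANXA2 to PLAUR rose by 0.35, from 5.03 ± 0.17 to 5.38 ± 0.052 (SD, n = 5), without overlap (exact permutation p = 0.00794, adjusted p = 0.0119). PLAUR thus changed unequally to both PLAU and ANXA2, which themselves did not pass the test.

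**Figure D3:**
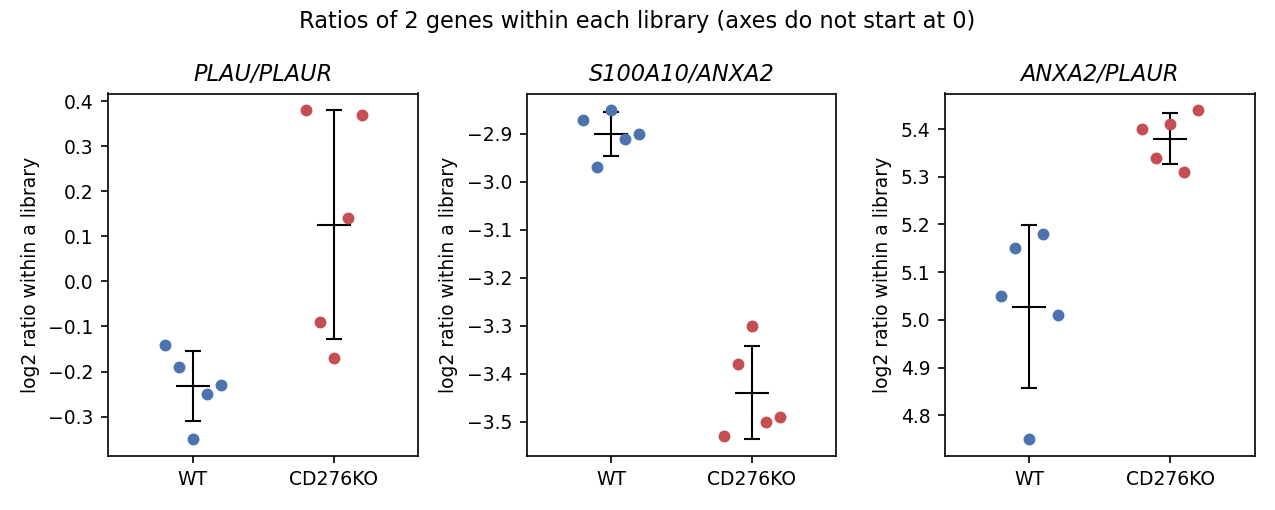
Log2 ratio of TPM + 1 of 2 genes within each library (vertical axes, which do not start at 0), with replicates 1 to 5 from left to right and the mean ± SD (n = 5) in black. S100A10/ANXA2 is lower and ANXA2/PLAUR is higher in every HCT116-CD276KO library, while PLAU/PLAUR is higher on average and overlaps in replicate 3.

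The rest of the pathway was described by lists of 100 further genes, also chosen with earlier results of these data known. Of them 60 reached a mean of 1 TPM. Of these 60 genes 8 were lower and 1 was higher, 15.0% against 4.87% of all genes, with a median log2 fold change of -0.15. With the length and GC trends removed 8 were lower and 5 higher, where 1221 of all 13472 genes were called. With quantile normalization 7 were lower and 2 higher, where 638 of all 13581 genes were called. With median-of-ratios scaling 5 were lower and 1 higher, where 578 of all 13564 genes were called. Plasminogen itself (PLG) was at or under 0.04 TPM in every library. Of 5 tested genes in the list of plasminogen and proteases that can start its activation, 2 were lower and none was higher, with a median log2 fold change of -0.24. CTSL, encoding the lysosomal protease cathepsin L, fell from 63.8 ± 7.26 to 38.8 ± 2.07 TPM (SD, n = 5), a change on the log2 scale of -0.70 (adjusted p = 0.000519, limma). ST14, encoding the membrane protease matriptase, fell from 73.1 ± 5.52 to 51.4 ± 4.01 TPM (adjusted p = 0.00254). CTSB, encoding cathepsin B and the most abundant of this list, had a log2 fold change of -0.087 (adjusted p = 0.388).

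Of 8 other inhibitors tested, with a median log2 fold change of -0.055, only SERPINA5 passed (12.5%, against 4.87% of all genes). It encodes the protein C inhibitor, which also inactivates urokinase, and stood at a low level, 2.37 ± 0.33 against 0.776 ± 0.24 TPM (SD, n = 5), a change on the log2 scale of -0.93 (adjusted p = 0.00129, limma). The HCT116-CD276KO mean of SERPINA5 lay under 1 TPM, so the gene reached the filter through its HCT116-WT level. A filter of 5 TPM left it out. SPINT2, the most abundant inhibitor of the list and one that blocks matriptase, had a log2 fold change of -0.20 (adjusted p = 0.106).

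Of 8 tested genes for other plasminogen-binding proteins and partners of the annexin A2 complex, KRT8 and PDIA3 were lower, and the median log2 fold change was -0.11. KRT8, a keratin whose end binds plasminogen, fell from 2082 ± 177 to 1553 ± 110 TPM (log2 fold change -0.42, adjusted p = 0.00441, limma). PDIA3, an endoplasmic reticulum disulfide isomerase, had a log2 fold change of -0.23 (adjusted p = 0.0195). Neither passed with median-of-ratios scaling, where the adjusted p was 0.0642 for KRT8 and 0.207 for PDIA3. PDIA3 was also lost with the length and GC trends removed (-0.12, adjusted p = 0.194). It was lost without HCT116-WT replicate 1 (0.0574) or 2 (0.0558) or HCT116-CD276KO replicate 4 (0.0520), by adjusted p. GAPDH, the most abundant gene of this list, had a log2 fold change of 0.12 and did not pass.

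None of the 10 tested uPAR partners and clearance receptors passed with limma, where 4.87% of all genes passed, and the median log2 fold change was -0.19. With quantile normalization 1 gene passed as higher, and with the length and GC trends removed 1 passed as lower and 1 as higher. Beside the rule for naming, and picked after its values were seen, EGFR is given as the one of these 10 with groups that did not overlap. Of all genes tested, 7.61% had groups that did not overlap. This receptor tyrosine kinase is known to signal together with uPAR. It stood between 23.1 and 29.7 TPM in HCT116-WT and between 8.77 and 21.1 TPM in HCT116-CD276KO libraries, a log2 fold change of -0.79 (adjusted p = 0.0572, limma). EGFR passed with the length and GC trends removed (-0.55, adjusted p = 0.0178). It also passed without HCT116-CD276KO replicate 1 (adjusted p = 0.0365) or replicate 5 (adjusted p = 0.0354). In the other 16 alternative settings EGFR was not called, with adjusted p up to 0.145 (limma). ITGB1, the most abundant of these genes, had a log2 fold change of -0.26 (adjusted p = 0.223). Of the 7 tested relatives of uPAR in the Ly6 family, with a median log2 fold change of -0.15, 14.3% were called, against 4.87% of all genes. The called gene was CD59, a membrane inhibitor of complement, which was lower with a log2 fold change of -0.26 (adjusted p = 0.0132, limma). The call of CD59 was lost with the length and GC trends removed (-0.051, adjusted p = 0.771) and with median-of-ratios scaling (-0.16, adjusted p = 0.131). LY6E, the most abundant of the family, had a log2 fold change of 0.16 (adjusted p = 0.352).

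Of 8 tested genes for substrates of plasmin or urokinase, 2 were lower and none higher, with a median log2 fold change of -0.16. F2RL1, the protease-activated receptor PAR2 and the most abundant of this list, fell from 178 ± 19.1 to 117 ± 16.7 TPM (log2 fold change -0.61, adjusted p = 0.00711, limma). BDNF, a growth factor whose precursor plasmin cleaves, had a log2 fold change of -0.36 (adjusted p = 0.0256), and lost its call under quantile normalization (-0.22, adjusted p = 0.0803). It was also lost without HCT116-WT replicate 1, 2, 4 or 5 or HCT116-CD276KO replicate 2, 3 or 4, with adjusted p from 0.0548 to 0.0770.

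Of 12 tested genes for AP-1 and ETS factors and SP1, transcription factors known to act at the urokinase gene, 1 was higher and none was lower. The called share was 8.33%, against 4.87% of all genes, and the median log2 fold change was -0.11. FOS rose from 35.3 ± 4.72 to 49.4 ± 6.57 TPM (SD, n = 5), a change on the log2 scale of 0.48 (adjusted p = 0.0334, limma). The call of FOS was lost without a filter on low values (0.0756), and without HCT116-WT replicate 1, 2, 4 or 5 or HCT116-CD276KO replicate 2 or 4, with adjusted p from 0.0528 to 0.0904. FOSL1, the most abundant of these factors, had a log2 fold change of -0.21 (adjusted p = 0.301).

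For each of the 3 genes that fell, the 3 genes with the most similar profile over the 10 libraries were sought among all genes tested. Likeness was the root mean square difference of log2(TPM + 1) after centring each gene on its mean, and it rests on a group difference that the genes share. For PLAUR, whose own spread was 0.253, they were RTN4RL1 at 0.0593, CKMT1B at 0.0634 and S100A11 at 0.0659. RTN4RL1 had means of only 3.13 TPM in HCT116-WT and 2.12 TPM in HCT116-CD276KO cells, where log2(TPM + 1) understates changes. CKMT1B has a near-identical copy in the genome, so its level is uncertain. S100A11, another S100 family gene, went from 221 ± 10.6 to 157 ± 6.28 TPM (SD, n = 5). For SERPINE2, with a spread of 0.303, they were WNT9A at 0.0592, CDA at 0.0773 and KHDC4 at 0.0776. WNT9A was likewise low, with means of 2.70 TPM in HCT116-WT and 1.43 TPM in HCT116-CD276KO cells. For S100A10, with a spread of 0.342, they were HOXD8 at 0.0734, BAMBI at 0.0808 and FGFBP1 at 0.0920, all 3 at under 5 TPM, far below S100A10 itself.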

How the data were processed

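Polyadenylated RNA of 5 HCT116-WT and 5 HCT116-CD276KO cultures was sequenced as single reads from strand-specific libraries. According to the submitters' processing notes, the authors used STAR 2.5.2b on hg38, RSEM 1.3.0, featureCounts 1.5.1, FastQC 0.11.5 and limma. The authors deposited TPM values for 58050 Ensembl genes, and which program gave them is not stated. Symbols from GENCODE 44 matched 56947 of the identifiers, and positions are on hg38. Groups came from the sample titles.

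Genes whose mean reached 1 TPM were compared on log2(TPM + 1), a scale that understates changes of low genes, in limma 3.58.1 (R 4.3.3) with a variance trend and Benjamini-Hochberg adjustment over all 13581 genes. Exact permutation tests were two-sided (252 splits). As TPM do not carry read numbers, precision rests on the 5 cultures per group. Length and GC trends were removed by local regression with a span of 0.3, in the 13472 genes with both values. The scripts were tested on simulated data. Python 3.11.15, pandas 2.3.3, numpy 2.4.6 and matplotlib 3.10.9 were used.

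The members and lists were chosen with earlier results of these data known. The genes named were the 7 members, list genes with an adjusted p under 0.05, the most abundant gene of each list, the 3 nearest profiles of each called member, and CD276. EGFR, PLG, ANXA2P1, C10orf55 and the cell type markers were named beside this rule. Other genes of the system, 1 of them first placed in a list and then taken out of its counts, are not reported here. Alternatives were a pseudocount of 0.1, no filter and a filter of 5 TPM, 2 scalings, the length and GC correction, 2 variance models, the replicate number as a block, each library left out, and a ratio of mean TPM. The cultures carry the same replicate numbers in both groups, but nothing says that a number marks a shared flask or day.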

Additional observations from a re-analysis of the deposited data

Results flagged for a closer look

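In 38 groups of 5 values, from the 7 genes, the 3 ratios and the called list genes, the gap between the highest or lowest value and its neighbour was set against the range of the group. The share passed the limit of 0.71 in 3 groups, and chance passes it in about 1 of 20. The first was PLAUR in the HCT116-CD276KO group, where replicate 4 (54.9 TPM) was above the remaining range of 49.2 to 50.8 TPM by 0.733 of the whole range. KRT8 in the same group had its highest value in replicate 2, 1747 TPM against 1474 to 1532 TPM elsewhere, with a gap of 0.788. CD59 was highest in HCT116-WT replicate 1, 141 TPM against 127 to 131 TPM elsewhere, with a gap of 0.732. In all 3 cases the library stayed apart from the opposite group.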

How the results depend on the processing

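The calls of S100A10, SERPINE2 and PLAUR held under every alternative run. S100A10 ranged from -0.71 to -0.57 on the log2 scale, SERPINE2 from -0.61 to -0.41 and PLAUR from -0.51 to -0.39. PLAU and ANXA2 stayed negative and not called, from -0.18 to -0.023 and from -0.21 to -0.030. PLAT ranged from -0.39 to -0.17, from -0.39 to -0.24 with each library left out, and passed without HCT116-CD276KO replicate 1 alone. PLGRKT turned to 0.035 with median-of-ratios scaling and 0.045 with quantile normalization, and ranged from -0.11 to 0.019 with 1 library left out.

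The number of all genes called was 662, 1221 with the length and GC trends removed, and 340 to 886 with 1 library left out. Leaving out HCT116-WT replicate 1, 2, 4 or 5 gave 343, 370, 422 or 340, and leaving out HCT116-CD276KO replicate 3 or 4 gave 404 or 381. The cause was not tested. The number of list genes called was 9, 13 with the length and GC trends removed (8 lower, 5 higher), and 6 to 11 with 1 library left out. Correlations of same-numbered deviations over genes gave no sign of pairing by replicate number. They ran from -0.18 to 0.12, and 1 of the 5 HCT116-WT libraries correlated best with its own number. The deviations still held each library's trends with length and GC content, so they cannot decide whether same-numbered cultures were paired. With the replicate block 378 of all genes and 5 of the list genes were called, the calls of the 7 genes did not change, and the log2 ratios of PLAU to PLAUR (0.36), S100A10 to ANXA2 (-0.54) and ANXA2 to PLAUR (0.35) had p = 0.0625 in an exact permutation test within pairs, the smallest that 5 pairs allow. With 1 library left out these ratios ranged from 0.30 to 0.43, from -0.57 to -0.52 and from 0.28 to 0.39.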
